A study of Mus musculus with 96 samples.

Results

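The arrays described here are the 6 that measured mouse bone marrow dendritic cells 0.5, 1 and 2 h after addition of the Toll-like receptor ligand labelled Grd, set against the 8 arrays of unstimulated cells. They were chosen by their titles and make up 14 of the 96 arrays of a time course with 5 ligands (Lps, Pic, Pam, Cpg and Grd) and 9 times. The labels do not spell the ligand out, and gardiquimod is the name known for it in this study. The Grd arrays came in pairs, 2 for each of the 3 times. The unstimulated arrays were taken at 0, 1, 2, 4, 6, 8, 12 and 24 h, 1 array each. All cells were primary cells that the labels call bone marrow dendritic cells, for which no mouse strain, age, culture factor or ligand dose is given here. No label states that paired arrays had separate cultures, so p-values measure only spread between arrays, and that spread may be technical. It was pooled over the groups of all 96 arrays and not taken from these 14 alone. The 8 unstimulated arrays, each of another time, counted as 1 group, so their change over time entered as spread. All arrays lay on 1 plate. Grd arrays of 0.5, 1 and 2 h lay in plate columns 1, 2 and 3, and unstimulated arrays lay in columns 10 to 12, so place on the plate cannot be told apart from Grd against unstimulated cells or from time after Grd.

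Gardiquimod is a synthetic imidazoquinoline that activates Toll-like receptor 7 (TLR7), an endosomal receptor whose natural ligand is single-stranded RNA. TLR7 signals through the adaptor MyD88, kinases of the IRAK family and the ubiquitin ligase TRAF6. These lead to the transcription factor NF-κB, to mitogen-activated protein kinases and to interferon regulatory factors. In dendritic cells this program is known to switch on cytokine, chemokine and co-stimulatory genes together with the inhibitors that later restrain them.

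Values are array intensities on a linear scale with a floor of 20, so a transcript at 20 has only an upper bound. Median intensity was between 55.0 and 59.5 on the 14 arrays, and each array had between 33.1% and 33.8% of its probe sets at the floor. How many arrays there are sets the precision of the means. The 2 arrays of each Grd pair correlated across genes with Pearson's r of 0.9969 at 0.5 h, 0.9982 at 1 h and 0.998 at 2 h, and 0 genes differed 2-fold within a pair. The dendritic cell genes Itgax, H2-Aa, H2-Ab1 and Cd74 had median intensities between 3702 and 8045 in both groups. Other dendritic cell genes were lower. Batf3, Irf4 and Irf8 had medians between 268 and 916, Flt3 and Zbtb46 between 27.2 and 42.3, and Cd209a was at the floor on all arrays. Macrophage genes (Cd68, Csf1r, C1qb) and neutrophil genes (S100a8, S100a9, Ngp) also had medians above 1000, while the T cell gene Cd3e, the B cell gene Cd79b and the mast cell gene Kit had medians of 20. The macrophage gene Marco and the neutrophil genes Mpo and Elane had medians between 21.6 and 39.6. Of 37 marker genes measured, 0 passed both thresholds of the limma test used below over 0.5 to 2 h (10 were higher and 7 lower at an unadjusted p under 0.05), and the part of other cells in any result was not tested. In such bulk RNA, fewer cells of a type and less RNA per cell cannot be told apart.

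Within 2 h of Grd, transcripts of inflammatory mediators were among those that rose: Cxcl2, Tnf, Cxcl1, Il6 and Ptgs2 had median intensities between 20 and 104 in unstimulated cells and all exceeded 1000 at 2 h. Over the 3 times together, 119 of 10543 genes tested (1.13%) differed from unstimulated cells, 101 (0.958%) higher and 18 (0.171%) lower, with a Benjamini-Hochberg adjusted p under 0.05 in limma and a log2 difference of at least 1. The word genes here covers named genes and probe sets without a single gene name. The median size of the rises was 1.41 on the log2 scale and the largest was 4.82, while the falls had a median of 1.16 and a largest of 1.53. Among the 101 rises, the highest of the 3 time means lay at 0.5 h for 6 genes, at 1 h for 21 and at 2 h for 74. All 6 Grd arrays lay above every unstimulated array for 35 of the 101, and below every one for 8 of the 18 falls. These genes were chosen for differing between the same arrays, so the 2 counts are no separate support. The share over all genes tested is not given here.

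The unstimulated cells were not alike over time. For the 101 genes that rose, the unstimulated arrays of 0, 1 and 2 h lay above the mean of all 8 by a median of 0.59, 0.23 and 0.74 on the log2 scale, and those of 6, 12 and 24 h below it by medians of -0.54, -0.34 and -0.49. For the 18 genes that fell the order was turned, with medians of -0.59, -0.38 and -0.72 at 0, 1 and 2 h and 0.55, 0.46 and 0.63 at 6, 12 and 24 h. When the unstimulated arrays of 0, 1 and 2 h alone served as the control, 52 genes were higher and 2 lower, and 50 of the 101 rises and 1 of the 18 falls still passed both thresholds. Counts or values against these early unstimulated arrays are therefore given below for the gene lists and for many of the named genes. The plot of the 119 differences under both controls shows that 92 of the 101 rises were smaller against the early arrays. Among the large rises, Cxcl1 and Ptgs2 lay on the line of equal values, Ccl2, Cish and Ccn3 came below a log2 difference of 1, and Il12b was larger.

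**Figure D1:**
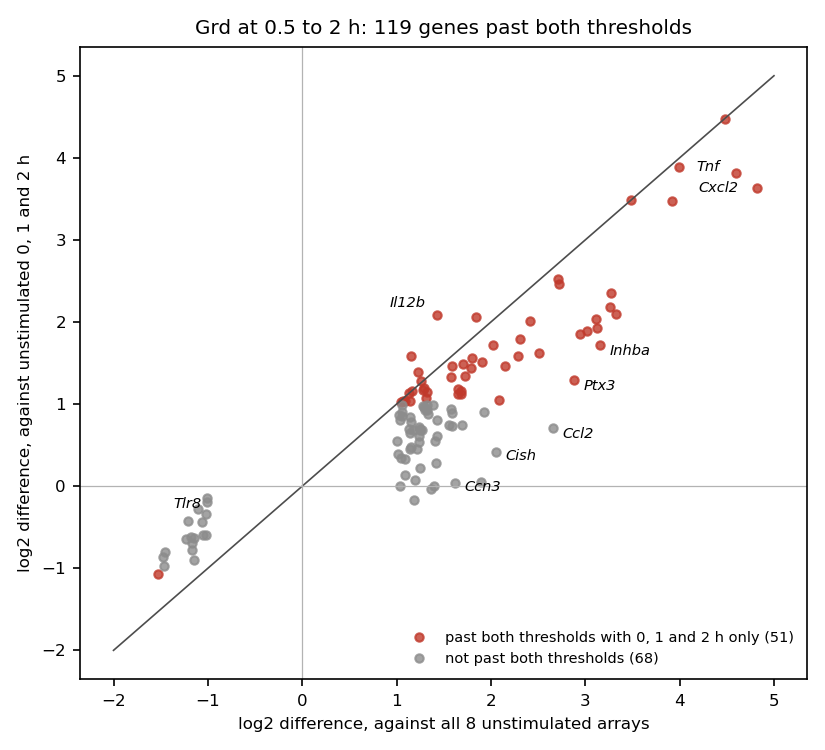
Each point is 1 of the 119 genes that passed both thresholds for Grd at 0.5 to 2 h. The horizontal axis gives the log2 difference from all 8 unstimulated arrays, the vertical axis that from the unstimulated arrays of 0, 1 and 2 h, and the line marks equal values. Red points (51) also pass with the early arrays alone and grey points (68) do not. Of the 119, 110 lie nearer to 0 on the vertical axis than on the horizontal one.

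Few components of the receptor pathway itself passed the thresholds, and few of all genes tested did (1.13%). Of 21 genes of the TLR7 pathway measured, 1 rose and 0 fell in limma. At an unadjusted p under 0.05 in limma, 8 were higher and 4 lower, while 4793 of all 10543 genes tested differed. The median log2 difference was 0.10 against -0.01 over all genes tested. The 1 that rose was Map3k8, which encodes the kinase TPL2 that leads from Toll-like receptors to ERK. It read 89.2 and 91.0 at 0.5 h, 250 and 275 at 1 h and 292 and 300 at 2 h, against 83.7 to 104 (median 87.8) in unstimulated cells. The 4 later arrays lay above all unstimulated arrays and the 0.5 h arrays among them, with a log2 difference of 1.52 ± 0.08 (SE) at 1 h (adjusted p = 2.9e-21) and 1.70 ± 0.08 at 2 h (adjusted p = 1.5e-23).

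Tlr7 itself had an intensity of 142 and 132 at 0.5 h and 306 and 305 at 2 h, against 171 to 488 (median 236) in unstimulated cells. Its log2 difference over the 3 times was -0.33 ± 0.12, under the size threshold, and its 2 other probe sets gave 0.02 and 0.05. Myd88, the adaptor, read between 919 and 1032 after Grd and between 644 and 998 without it, a log2 difference of 0.22 ± 0.06. Traf6 differed by 0.64 ± 0.11 and Map3k7, the kinase TAK1, by 0.07 ± 0.08. Of these genes, Tlr7 passed both thresholds between 0.5 and 2 h after Grd, in the probe set shown here. That change is given with the others inside the window. The 2 other probe sets of Tlr7 moved less. Their log2 differences from unstimulated cells were -0.12 and -0.08 at 0.5 h and 0.17 and 0.19 at 2 h.

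Of 19 inflammatory cytokine genes and related mediators measured, 10 were higher over the 3 times (Tnf, Il6, Ptgs2, Il1a, Inhba, Il1b, Tnfsf9, Il12b, Il12a and Csf1) and 0 lower in limma (1 lower at an unadjusted p under 0.05), with a median log2 difference of 1.01 over the 19. With the early unstimulated arrays alone, 9 of the 10 passed, all but Csf1. By time, 4 were higher at 0.5 h, 9 at 1 h and 11 at 2 h, and with the early unstimulated arrays 2 (Tnf and Il1b), 8 and 9. For this and the later lists, the shares over all genes tested were 0.958% higher and 0.171% lower over the 3 times. At single times 0.379% were higher at 0.5 h, 1.02% at 1 h and 1.88% at 2 h.

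Tnf, which encodes the cytokine tumour necrosis factor, read 386 and 286 at 0.5 h, 3146 and 3282 at 1 h and 3622 and 3789 at 2 h, against 33.2 to 158 (median 61.8) in unstimulated cells. Every Grd array lay above every unstimulated array, already at 0.5 h. The log2 difference was 2.35 ± 0.25 at 0.5 h (5.10-fold, adjusted p = 1.8e-10), 5.62 ± 0.25 at 1 h (49.2-fold) and 5.83 ± 0.25 at 2 h (56.7-fold, adjusted p = 4.5e-26). Against the early unstimulated arrays these differences were smaller, at 1.57, 4.83 and 5.04, and still passed.

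Il6, which encodes interleukin-6, was later. It read 50.9 and 29.6 at 0.5 h, 731 and 911 at 1 h and 2261 and 2337 at 2 h, against 20 to 62.4 (median 22.7) without ligand, where 3 of 8 arrays were at the floor. The 0.5 h arrays lay within the unstimulated range (log2 difference 0.52 ± 0.27, adjusted p = 0.13), and the later 4 lay far above it (4.88 ± 0.27 at 1 h and 6.37 ± 0.27 at 2 h).

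Il1b and Il1a, which encode the interleukin-1 cytokines, were already measurable in unstimulated cells. Il1b read 1720 and 1612 at 0.5 h and 8208 and 8851 at 2 h, against 388 to 1256 (median 724), and no Grd array overlapped the unstimulated range. Il1a read 541 and 454 at 0.5 h and 3023 and 3083 at 2 h, against 61.9 to 497 (median 137), and 1 of the 0.5 h arrays lay inside that range. At 0.5 h the log2 difference of Il1a was 1.68 ± 0.33, and it was 0.60 and no longer passed against the early unstimulated arrays.

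Il12b, the p40 subunit of interleukin-12, had no rise at 0.5 h. It read 60.6 and 59.9 at 0.5 h, 237 and 258 at 1 h and 966 and 876 at 2 h, against 38.8 to 241 (median 86.7) in unstimulated cells, the highest being the 24 h array. The log2 difference was 3.36 ± 0.31 at 2 h (10.3-fold, adjusted p = 1.0e-12), and its other probe set gave 3.25 there. That other probe set gave -1.29 at 0.5 h, which passed as a fall, against -0.55 in the one shown. Over the 3 times it gave 0.99, under the threshold. Inhba, the activin A subunit, ranged from 61.1 to 966 in unstimulated cells and read 5276 and 5184 at 2 h, a log2 difference of 4.36 ± 0.45. That difference was 2.92 against the early unstimulated arrays and still passed.

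Ptgs2, which encodes the prostaglandin synthase COX-2, read 20 in each of the 8 unstimulated arrays and in both 0.5 h arrays. It read 480 and 566 at 1 h and 1093 and 1289 at 2 h, so it was at least 24.9-fold higher at 1 h and at least 56.6-fold higher at 2 h. Its other probe set gave log2 differences of 3.06 and 4.68 at these times. Among 12 genes of prostaglandin and lipid mediator enzymes, Ptgs2 and Ch25h, the cholesterol 25-hydroxylase, rose and 0 fell (5 lower at an unadjusted p under 0.05 in limma). Ch25h read 54.1 and 56.2 at 0.5 h and 394 and 377 at 2 h, against 28.4 to 54.1 in unstimulated cells.

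**Figure D2:**
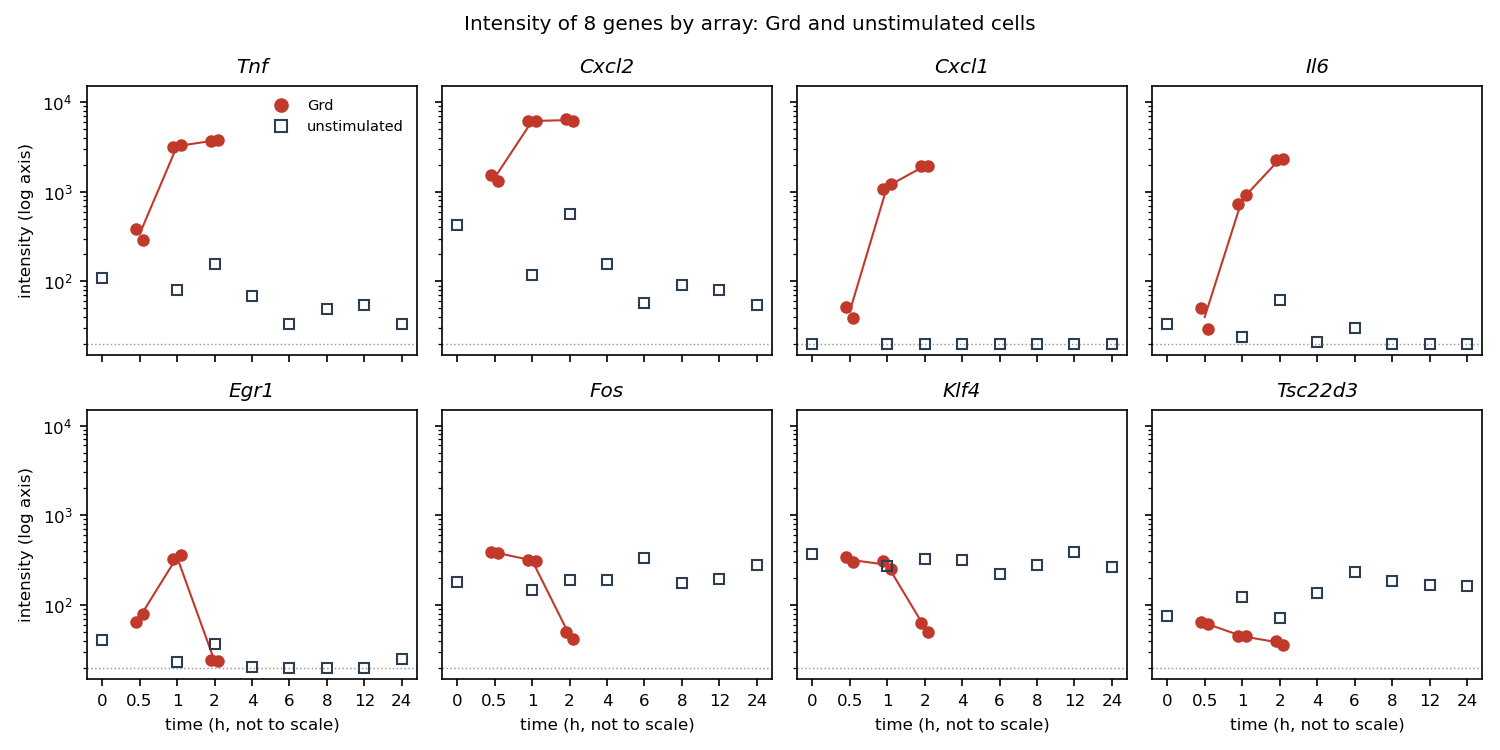
Intensity on a log axis by time for 8 genes, with 2 Grd arrays per time as red points joined at their means and 1 unstimulated array per time as open squares. The dotted line is the floor of 20. Tnf and Cxcl2 are above all squares from 0.5 h, Il6 from 1 h, Egr1 peaks at 1 h, and Fos and Klf4 drop below all squares at 2 h.

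Chemokine genes formed the other large group. Of 19 measured, 9 rose (Cxcl2, Cxcl1, Ccl3, Ccl4, Ccl2, Cxcl10, Ccrl2, Cxcl5 and Ccl17) and 0 fell (1 lower at an unadjusted p under 0.05 in limma), and 7 of the 9 passed with the early unstimulated arrays alone, all but Ccl2 and Ccl17. The median over the 19 was 0.30. Cxcl2, which encodes a neutrophil-attracting chemokine, read 1536 and 1312 at 0.5 h, 6156 and 6073 at 1 h and 6399 and 6123 at 2 h, against 54.4 to 562 (median 104) in unstimulated cells. Its 6 Grd arrays all lay above the unstimulated range, and the log2 difference was 3.4 ± 0.38 at 0.5 h and 5.54 ± 0.38 at 2 h. These differences came to 2.22 and 4.36 against the early unstimulated arrays and still passed.

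Cxcl1, its close relative, was at the floor in all 8 unstimulated arrays. It read 52.5 and 39.6 at 0.5 h, 1064 and 1214 at 1 h and 1922 and 1936 at 2 h. It was thus at least 2.22-fold higher at 0.5 h, at least 54.2-fold at 1 h and at least 91.9-fold at 2 h (adjusted p = 4.4e-39).

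Ccl3 and Ccl4, which encode macrophage inflammatory proteins, both rose. Ccl3 read 963 and 934 at 0.5 h and 5491 and 5551 at 2 h, against 73.2 to 804 (median 251) without ligand. Ccl4 read 224 and 214 at 0.5 h and 1292 and 1323 at 2 h, against 29.4 to 194 (median 57.0). All Grd arrays of both lay above the unstimulated range, but at 0.5 h the log2 differences of 1.90 and 1.65 came to 0.66 and 0.53 against the early unstimulated arrays and no longer passed.

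Ccl2, a chemokine that attracts monocytes, depended strongly on the controls. It read 906 and 882 at 0.5 h and 1568 and 1452 at 2 h, while unstimulated cells had 944, 492 and 927 at 0, 1 and 2 h and 40.7 to 276 from 4 h on. Its log2 difference over the 3 times was 2.65 ± 0.38 with all unstimulated arrays and 0.71, under the threshold, with those of 0, 1 and 2 h. Ccrl2, which encodes a chemokine-binding receptor, had no such drift: it read 138 and 112 at 0.5 h, inside the unstimulated range of 106 to 187, and 966 and 972 at 1 h.

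Promoter windows from RefSeq (GRCm38.p6) were searched on both strands for the consensus site of NF-κB, since NF-κB is the best known regulator of these genes. The motifs TGANTCA, TGACGTCA and the CArG box were searched as well. A window runs from 250 bases before to 50 after an annotated start, a gene may have several, and 60 of the 79 named genes that rose had 1 or more. Of their 85 windows, 17 (20%) held a match, against 4.51% of all 32851 windows in the table and 5.34% of the windows of named genes tested. By gene this was 17 of 60 (28.3%), against 5.14% of all genes with a window and 6.39% of those named and tested. Cxcl1, Cxcl2, Il6, Ptx3, Cxcl10, Tnfaip3, Nfkbia, Nfkbie and Rel were among the 17. Tnf, Ccl3, Socs3, Il1a and Inhba, also among the largest rises, had no match in their windows. None of the 13 windows of genes that fell held one, but 13 windows are too few to tell 0 from the share of all windows. Among genes that fell at single times, 1 of 57 windows held a match at 2 h and 2 of 40 at 0.5 h. TGANTCA, the AP-1 type site, was in 16.5% of the 85 windows against 7.81% of all, and TGACGTCA in 5.88% against 1.79%. A match is a stretch of letters and not a shown binding site. The 250 bases before the start of 3 of the leading genes follow, on the plus strand and 5′ to 3′, shown because these genes passed both thresholds at 1 h and 2 h and hold a match. Capitals mark the consensus matches, which overlap in Cxcl2 and Cxcl1.
Cxcl2, chr5:90903649-90903898: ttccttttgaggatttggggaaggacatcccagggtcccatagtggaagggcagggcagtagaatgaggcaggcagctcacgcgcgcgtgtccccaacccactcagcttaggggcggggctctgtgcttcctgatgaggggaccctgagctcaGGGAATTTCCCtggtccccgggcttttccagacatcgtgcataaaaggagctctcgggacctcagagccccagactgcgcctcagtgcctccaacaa
Cxcl1, chr5:90890995-90891244: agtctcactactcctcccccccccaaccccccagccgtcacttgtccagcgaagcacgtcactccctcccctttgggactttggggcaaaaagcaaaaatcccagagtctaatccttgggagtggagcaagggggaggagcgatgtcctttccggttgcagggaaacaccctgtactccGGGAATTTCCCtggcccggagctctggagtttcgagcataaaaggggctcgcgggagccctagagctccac
Il6, chr5:30012864-30013113: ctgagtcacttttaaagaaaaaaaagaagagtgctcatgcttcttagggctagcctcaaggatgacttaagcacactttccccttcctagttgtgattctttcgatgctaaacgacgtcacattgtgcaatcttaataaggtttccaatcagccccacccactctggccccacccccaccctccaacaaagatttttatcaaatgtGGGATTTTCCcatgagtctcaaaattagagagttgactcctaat
The last matching base lay 86 bases before the annotated start in Cxcl2, 60 before it in Cxcl1 and 34 before it in Il6.

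Of 22 genes of the NF-κB system measured, 7 rose over the 3 times (Nfkbiz, Tnfaip3, Cflar, Nfkbia, Nfkbie, Pim1 and Rel) and 0 fell (0 lower at an unadjusted p under 0.05 in limma). The median over the 22 was 0.41. With the early unstimulated arrays alone 2 of them passed over the 3 times, Nfkbiz and Tnfaip3, and 9 genes of the list passed at 2 h.

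Nfkbiz encodes IκBζ, a nuclear partner of NF-κB that is needed for secondary cytokine genes. It read 157 and 132 at 0.5 h, 3019 and 3248 at 1 h and 3424 and 3315 at 2 h, against 47.9 to 99.0 (median 76.5) in unstimulated cells. All Grd arrays lay above the unstimulated range, and the log2 difference was 5.44 ± 0.20 at 1 h and 5.54 ± 0.20 at 2 h, with 5.77 and 5.90 from its other probe set.

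Tnfaip3 encodes the ubiquitin-editing inhibitor A20. It read 59.0 and 58.9 at 0.5 h, in the lower part of the unstimulated range of 51.2 to 129, and 669 and 653 at 1 h and 706 and 729 at 2 h. Nfkbia, which encodes the inhibitor IκBα, was abundant without ligand (922 to 2095) and read 4801 and 4789 at 1 h, a log2 difference of 1.75 ± 0.15.

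Inhibitors outside NF-κB were among the negative feedback genes, of which 6 of 20 rose (Socs3, Cish, Tnfaip3, Dusp1, Nfkbia and Trib1) and 0 fell (0 lower at an unadjusted p under 0.05 in limma), with a median of 0.65. With the early unstimulated arrays 3 of these 6 passed, Socs3, Tnfaip3 and Dusp1, while Nfkbia came to 0.99 and Trib1 to 0.87. Socs3, an inhibitor of cytokine receptor signalling, read 179 and 168 at 0.5 h, 1070 and 1063 at 1 h and 845 and 820 at 2 h, against 28.2 to 146 (median 49.8). Its 6 arrays were above the range, and the log2 difference was 4.26 ± 0.29 at 1 h. Cish, of the same family, read between 1178 and 1730 after Grd, but unstimulated cells had 1126, 933 and 1045 at 0, 1 and 2 h and 72.7 to 547 later, so its log2 difference of 2.05 ± 0.34 became 0.42 against the early arrays.

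Zc3h12a, which encodes the RNA-cleaving enzyme regnase-1, was the 1 gene that rose over the 3 times among 15 regulators of mRNA decay. At 1 h Btg2, an antiproliferative factor, passed as well (log2 difference 1.16 ± 0.14). Of all genes tested, 0.958% rose over the 3 times and 1.02% at 1 h. Zc3h12a read 89.2 and 85.9 at 0.5 h and 468 and 457 at 2 h, against 51.4 to 92.8 in unstimulated cells, a log2 difference of 2.75 ± 0.11 at 2 h. Zfp36l2, of the family that promotes decay of AU-rich transcripts, fell at 2 h: it read 760 to 1068 in the 4 earlier arrays, 1 of them below the unstimulated range of 827 to 1185, and 402 and 347 at 2 h, both below it (log2 difference -1.42 ± 0.10). Zfp36 itself was not analysed here.

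**Figure D3:**
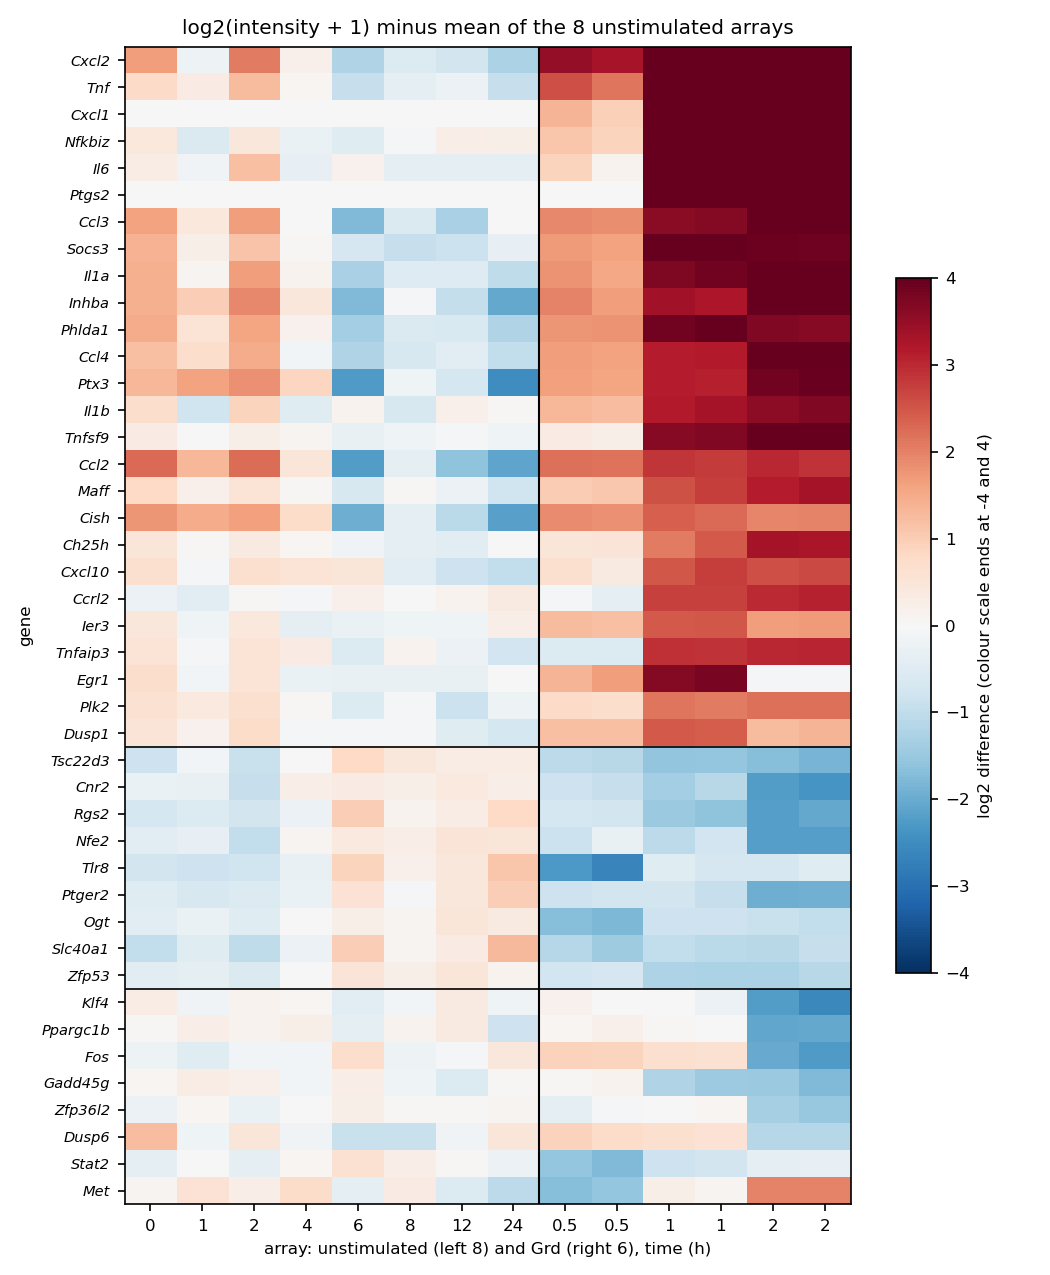
Colour gives log2(intensity + 1) of each array minus the mean of the 8 unstimulated arrays, with the unstimulated arrays on the left by time and the Grd arrays on the right. The upper block holds the 26 largest rises among the genes the naming rule gave, the middle block 9 falls over the 3 times, and the lower block 8 genes with changes at single times. In the upper block the unstimulated arrays of 0 and 2 h are redder than those of 6 to 24 h, and most genes turn dark red between 0.5 and 1 h.

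Immediate-early genes, which cells switch on without new protein synthesis, split into those that were brief and those that lasted. Of 27 measured, 6 rose over the 3 times (Maff, Ier3, Egr1, Plk2, Dusp1 and Egr2) and 0 fell (2 lower at an unadjusted p under 0.05 in limma). Egr2 had a log2 difference of 1.56 over the 3 times and 0.74, under the threshold, against the early unstimulated arrays. By time, 5 rose at 0.5 h, 10 at 1 h and 7 at 2 h, where 3 fell (Klf4, Fos and Klf2). Of all genes tested, 0.379%, 1.02% and 1.88% rose at these times and 0.607% fell at 2 h. Against the early unstimulated arrays 2 of the 27 rose at 0.5 h (Fos and Egr1), 10 at 1 h and 4 at 2 h, and 3 fell at 2 h (Klf4, Fos and Myc).

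Egr1, a zinc finger transcription factor that responds to ERK, had the clearest pulse. It read 65.3 and 80.5 at 0.5 h, 327 and 359 at 1 h and 24.2 and 23.6 at 2 h, against 20 to 41.2 (median 21.8) in unstimulated cells. The first 4 arrays lay above the unstimulated range and the last 2 inside it. The log2 difference was 1.51 ± 0.22 at 0.5 h, 3.73 ± 0.22 at 1 h (13.3-fold) and -0.05 ± 0.22 at 2 h.

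Fos, the AP-1 subunit, read 388 and 384 at 0.5 h and 318 and 313 at 1 h, then 50 and 41.8 at 2 h, against 147 to 333 (median 191) without ligand. At 2 h both arrays were below every unstimulated array, a log2 difference of -2.14 ± 0.20 (adjusted p = 4.6e-13). Its 0.5 h difference of 0.91 ± 0.20 was under the threshold and was 1.17, past it, against the early unstimulated arrays. Jun passed at 1 h alone, with 309 and 278 against 78.9 to 141 (1.38 ± 0.15).

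Dusp1, the phosphatase that switches off p38 and JNK, read 972 and 977 at 0.5 h, 2302 and 2270 at 1 h and 1002 and 1082 at 2 h, against 255 to 703 (median 403). All 6 arrays were above the range, with the highest at 1 h. Against the early unstimulated arrays the log2 differences of Dusp1 were 0.74, 1.97 and 0.84 at 0.5, 1 and 2 h, and only that of 1 h passed. Maff, a small Maf transcription factor, instead went on rising, from 86.0 and 90.5 at 0.5 h to 385 and 432 at 2 h, against 24.2 to 74.6. Atf3, a further early response gene, was already between 724 and 1344 in unstimulated cells, and its log2 difference of 0.26 ± 0.07 was under the threshold.

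Interferon genes and their targets had few members past the thresholds within 2 h, but so did all genes tested, of which 0.958% were higher over the 3 times. Of 14 type I interferon genes and factors, 0 rose and 0 fell in limma over the 3 times or at any single time (3 higher and 2 lower over the 3 times at an unadjusted p under 0.05). Ifnb1, which encodes interferon-β, was at the floor without ligand and in the Grd arrays of 0.5 and 1 h and read 24.4 and 23.3 at 2 h. Of 33 interferon-stimulated genes, 1 rose (Cxcl10) and 0 fell (13 lower at an unadjusted p under 0.05 in limma), and their median was -0.14. Cxcl10, a chemokine that NF-κB also controls, read 64.1 and 53.4 at 0.5 h, 236 and 282 at 1 h and 248.7 and 258 at 2 h, against 20 to 64.6. The 1 h and 2 h arrays lay above the range, with a log2 difference of 2.63 ± 0.23 at 1 h. Ifit3 and Oas2, antiviral effectors, had log2 differences of -0.62 ± 0.16 and -0.63 ± 0.10, both under the size threshold.

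Of 20 maturation genes of dendritic cells measured, 3 rose over the 3 times (Tnfsf9, Cd40 and Cd80), 0 at 0.5 h in limma (7 higher at an unadjusted p under 0.05), 2 at 1 h and 5 at 2 h. Of all genes tested, 0.958% rose over the 3 times, 0.379% at 0.5 h, 1.02% at 1 h and 1.88% at 2 h. Tnfsf9 also belongs to the cytokine list. With the early unstimulated arrays, 1 passed over the 3 times (Tnfsf9) and 4 at 2 h. Tnfsf9, the 4-1BB ligand that co-stimulates T cells, read 37.0 and 34.3 at 0.5 h, 376 and 395 at 1 h and 511 and 566 at 2 h, against 23.7 to 36.7. Cd40, the co-stimulatory receptor, read 206 and 157 at 0.5 h, 180 and 184 at 1 h and 435 and 474 at 2 h, against 56.7 to 170, so that 1 of its 0.5 h arrays overlapped the unstimulated range and both 2 h arrays did not. The log2 difference of Cd40 at 2 h was 2.20 ± 0.17 and that of Icosl, the ICOS ligand, 1.51 ± 0.14.

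Fewer genes fell, and over the 3 times together 1 of the 18 falls still passed against the early unstimulated arrays. The largest of named genes were Tsc22d3 (-1.48 ± 0.14), Cnr2 (-1.47 ± 0.13), Rgs2 (-1.46 ± 0.14), Nfe2 (-1.23 ± 0.13), Tlr8 (-1.21 ± 0.20), Ptger2 (-1.18 ± 0.14), Ogt (-1.17 ± 0.10) and Slc40a1 (-1.11 ± 0.19). Against the early unstimulated arrays these were -0.86, -0.97, -0.80, -0.64, -0.42, -0.62, -0.78 and -0.28, and none of the 8 passed. At 0.5 h alone Tlr8 (-1.70) and Ogt (-1.36) did pass against those arrays. The lowest of the 3 time means lay at 0.5 h for 7 of the 18 falls, at 1 h for 2 and at 2 h for 9. The count of 18 falls was 31 without the unstimulated array of 2 h, 28 without that of 0 h and 11 without that of 24 h. Tsc22d3, which encodes the glucocorticoid-induced protein GILZ, shows the pattern. It read 64.9 and 61.3 at 0.5 h and 40.2 and 36.1 at 2 h, while unstimulated cells had 74.8, 124 and 72.3 at 0, 1 and 2 h and 135 to 234 from 4 h on. All Grd arrays were below all unstimulated arrays, but by less when the times were matched.

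At 2 h alone, 64 genes (0.607%) fell and 198 (1.88%) rose, and 24 of the 64 and 140 of the 198 passed with the early unstimulated arrays as well. These falls had transcription factors and G-protein receptors among them. Klf4, a Krüppel-like factor of myeloid differentiation, read 342 and 299 at 0.5 h, 307 and 254 at 1 h and 63.4 and 50 at 2 h, against 221 to 387 (median 300.0). The 2 h arrays lay below all unstimulated arrays and the earlier ones did not, a log2 difference of -2.40 ± 0.17 (5.26-fold, adjusted p = 1.7e-16) that was -2.49 against the early unstimulated arrays.

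Cnr2, which encodes the cannabinoid receptor 2, read 62.9 and 58.9 at 0.5 h and 23.4 and 21.4 at 2 h, against 59.4 to 147 (median 134). Its log2 difference at 2 h was -2.28 ± 0.19, and -1.79 against the early unstimulated arrays. Ptger2, a receptor for prostaglandin E2, read 35.6 and 35.9 at 2 h against 88.9 to 279, and Rgs2, a brake on G-protein signalling, 203 and 229 against 572 to 1867. Of 24 G-protein regulators and receptors, 3 rose (Ccrl2, Gpr84 and Rgs1) and 4 fell (Cnr2, Rgs2, Ptger2 and P2ry6) at 2 h, and these 4 fell against the early unstimulated arrays too.

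Further 2 h falls were Nfe2, the p45 subunit of the NF-E2 factor, at 21.5 and 21.6 against 51.4 to 148, and Ppargc1b, a coactivator of mitochondrial genes, at 111 and 111 against 263 to 605. Gadd45g, a stress sensor, fell already at 1 h. It read 89.9 and 96.9 at 0.5 h, 37.6 and 31.3 at 1 h and 30.8 and 24.9 at 2 h, against 58.9 to 107, so the later arrays did not overlap the unstimulated ones. Its log2 difference at 1 h was -1.32 ± 0.15, and it passed against the early unstimulated arrays too. At 1 h, 108 genes rose (1.02%) and 14 fell (0.133%), of which 68 and 2 passed with the early unstimulated arrays. The falls at 1 h were 24 without the unstimulated array of 2 h and 9 without that of 12 h.

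The 0.5 h arrays stood apart, with more falls than rises. At that time 40 genes were higher (0.379%) and 74 lower (0.702%), and with the early unstimulated arrays 5 of the 40 and 48 of the 74 still passed. The 5 rises were Cxcl2, Tnf, Egr1, Il1b and Cxcl1. Without the unstimulated array of 2 h, 61 genes in place of 40 were higher at 0.5 h. The largest named falls were Tlr8, a receptor close to Tlr7, Ogt, the enzyme that adds N-acetylglucosamine to nuclear proteins, Stat2, a mediator of interferon signals, and Met, the receptor for hepatocyte growth factor. Tlr8 read 55.4 and 43.5 at 0.5 h and between 173 and 200 at 1 and 2 h, against 156 to 601 (median 272) without ligand, a log2 difference of -2.48 ± 0.29 at 0.5 h. Met read 29.4 and 32.8 at 0.5 h, below its unstimulated range of 46.8 to 163, and 388 and 392.3 at 2 h, above it, with log2 differences of -1.63 ± 0.22 and 1.98 ± 0.22. Of the 74 genes, 7 were lower at 1 h and 5 at 2 h, where their median log2 difference was 0.08.

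These 0.5 h falls moved with plate column 1, which held the 0.5 h arrays of Grd, Lps, Pam and Pic, while those of Cpg lay in column 10. For the 74 genes, both Lps arrays lay below both Cpg arrays in 70, both Pam arrays in 72 and both Pic arrays in 69, against 23.6%, 22.6% and 30.5% of all genes tested. The median log2 difference from Cpg over the 74 was -0.92 for Grd, -0.87 for Lps, -0.80 for Pam and -1.09 for Pic. Tlr8 had means of 49.5 after Grd, 57.4 after Lps, 49.8 after Pam and 39.2 after Pic, and 171 after Cpg. Place on the plate and ligand cannot be told apart in this difference.

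**Figure D4:**
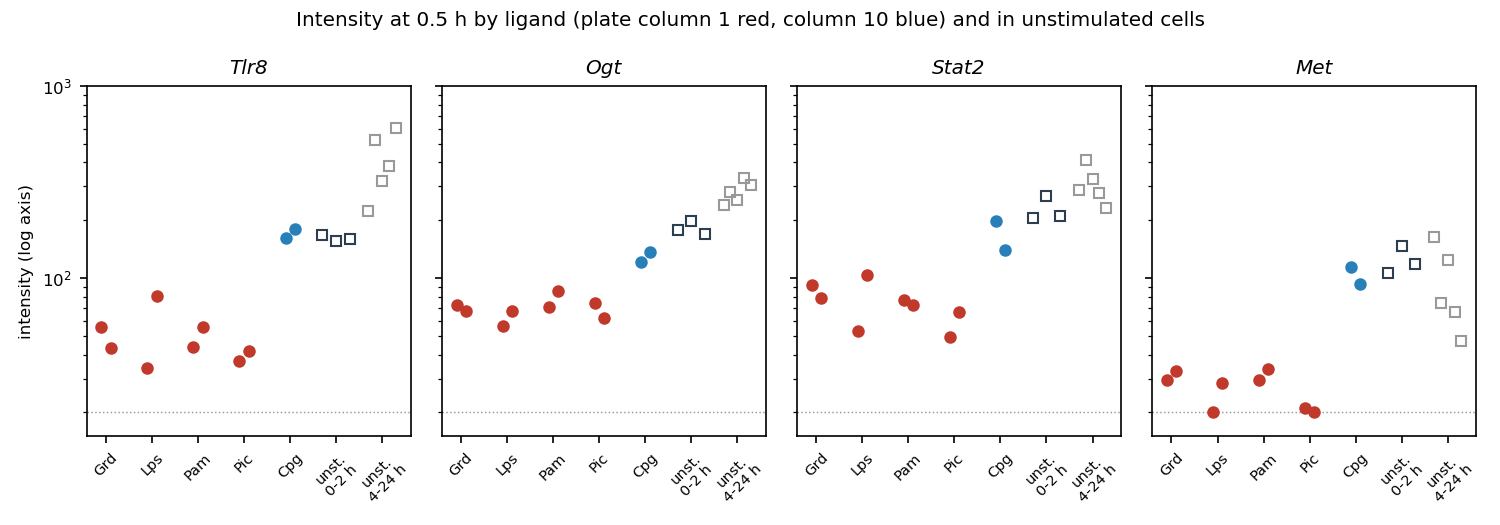
Intensity on a log axis of 4 genes at 0.5 h after each of 5 ligands (2 arrays each) and in unstimulated cells of 0 to 2 h (3 arrays) and 4 to 24 h (5 arrays). Red points are arrays of plate column 1 and blue points are the Cpg arrays of column 10, and the dotted line is the floor of 20. In all 4 genes the red points lie below the blue ones and below the unstimulated squares.

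Inside the window, 2 h against 0.5 h after Grd used no unstimulated array. Here 275 genes (2.61%) were higher at 2 h and 38 (0.360%) lower. The largest increases were Il6 (5.85 ± 0.34), Ptgs2 (5.82 ± 0.23), Cxcl1 (5.37 ± 0.18), Nfkbiz (4.54 ± 0.26), Il12b (3.91 ± 0.40) and Tnfsf9 (3.88 ± 0.29). The largest decreases were Fos (-3.05 ± 0.25), Klf4, Ppargc1b, Dusp6, Gadd45g and Nfil3. Dusp6, the phosphatase specific for ERK, read 86.7 and 76.6 at 0.5 h and was at the floor in both 2 h arrays. Nfil3, a bZIP transcription factor, read 298 and 366 at 0.5 h and 95.8 and 108 at 2 h, against 167 to 342 in unstimulated cells. Tlr7 was among the increases, from 142 and 132 to 306 and 305, in the probe set shown and not to this extent in its 2 others. The 0.5 h and 2 h arrays lay in plate columns 1 and 3, so place and time cannot be told apart here.

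The Grd response was then set against that to Cpg, taken from knowledge of the study as CpG DNA, whose receptor TLR9 is also endosomal and also uses MyD88. Without stated doses, the comparison is between the stimuli as applied, and place on the plate differed as well. Over the 3 times, 47 genes (0.446%) were lower after Grd and 0 higher in limma. Without the size threshold, 1721 genes were higher at an adjusted p under 0.05 and 2501 at an unadjusted p under 0.05, the largest by 0.82. The largest differences were Dusp14 (-2.60 ± 0.10), Egr1 (-2.34 ± 0.16), Dusp2 (-2.21 ± 0.17), Il23a (-2.07 ± 0.10), Tnfsf9 (-1.98 ± 0.17) and Cd70 (-1.95 ± 0.06).

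Some transcripts were near the floor after Grd and abundant after Cpg. Dusp2, a nuclear ERK phosphatase, was at the floor in the Grd arrays of 0.5 and 1 h and read 27.5 and 27.6 at 2 h. After Cpg it read 399 and 458 at 1 h and 116 and 161 at 2 h. Il23a, the p19 subunit of interleukin-23, read 26.8 and 28.8 at 2 h after Grd and 295 and 241 after Cpg, and Cd70, a co-stimulatory ligand, 24.5 and 26.9 against 334 and 315. Dusp14, a further phosphatase, read 20 to 27 in the 6 Grd arrays and 314 to 448 in the Cpg arrays of 1 and 2 h.

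Others differed in size or in time. Egr1 peaked at 1 h after both ligands, at 327 and 359 after Grd and 1841 and 1545 after Cpg, and the log2 difference was -2.96 ± 0.27 at 0.5 h, -2.30 ± 0.27 at 1 h and -1.77 ± 0.27 at 2 h. Cxcl1 was lower after Grd by -2.05 ± 0.18 at 0.5 h and -1.42 ± 0.18 at 1 h, while at 2 h the difference was -0.25 ± 0.18 (adjusted p = 0.42). Nfkbiz and Tnf gave -1.88 ± 0.26 and -1.82 ± 0.31 at 0.5 h and -0.36 ± 0.26 and -0.25 ± 0.31 at 2 h. Cxcl2 did not pass at any of the 3 times, with differences of -0.86 ± 0.47, -0.12 ± 0.47 and -0.09 ± 0.47.

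Genes lower after Grd by list were 5 of 19 inflammatory cytokines (Il23a, Tnfsf9, Il12b, Ptgs2 and Il6) and 4 of 27 immediate-early genes (Egr1, Dusp2, Nr4a1 and Btg2). To these came 4 of 19 chemokines and 3 of 20 maturation genes. Among all genes tested 0.446% were lower and 0 higher, so no list could hold a higher gene. Il12b read 237 and 258 at 1 h after Grd and 3273 and 3464 after Cpg, with no overlap. Cd40 read 435 and 474 at 2 h after Grd and 2239 and 2115 after Cpg. Ifnb1 read 24.4 and 23.3 at 2 h after Grd and 168 and 178 after Cpg, a log2 difference of -2.81 ± 0.16.

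By time, 44 genes (0.417%) were lower than after Cpg at 0.5 h (29 without the second Grd array of that time), 137 (1.30%) at 1 h and 97 (0.920%) at 2 h. In a limma fit of the compared arrays alone, 0 of these 44 passed (1147 lower at an unadjusted p under 0.05), 16 of the 137 and 72 of the 97. The genes higher after Grd were 0 at 0.5 h (984 at an unadjusted p under 0.05, the largest by 0.97), 39 (0.370%) at 1 h and 24 (0.228%) at 2 h, of which 2 of the 39 and 9 of the 24 passed in that fit. At 2 h the largest of these were Sox4 (1.54 ± 0.23), Map3k14 (1.47 ± 0.14), Eif2ak3 (1.42 ± 0.14) and Gpr65 (1.32 ± 0.12), each of which read lower after Cpg than in unstimulated cells. At 1 h the largest were Ccn3, Mgl2, Clec10a and Cad, and here the 2 Cpg arrays differed from each other: Ccn3 read 20 and 120 and Mgl2 149 and 385. These 2 arrays had 93 genes more than 2-fold apart, and without the second of them the count of genes higher after Grd at 1 h was 112.

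Pic, known as poly(I:C), a synthetic analogue of double-stranded RNA, acts through TLR3, which does not use MyD88. Over the 3 times, 18 genes (0.171%) were higher after Grd than after Pic and 2 (0.0190%) lower. The largest were Cxcl1 (3.58 ± 0.11), Ptgs2 (2.85 ± 0.13), Nfkbiz (2.45 ± 0.15), Il6 (2.35 ± 0.19), Tnf (2.22 ± 0.18) and Cxcl2 (1.86 ± 0.27). Tnf read 3146 and 3282 at 1 h after Grd and 316 and 380 after Pic, and Cxcl1 1064 and 1214 against 48.8 and 41.4. The plot of 8 genes by ligand shows Pic below Grd at 1 h in 7 of the 8, Dusp2 being at the floor in both.

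The 2 genes lower after Grd than after Pic were Ifnb1 (-1.20 ± 0.10) and Vapb (-2.19 ± 0.11). Ifnb1 was at the floor up to 1 h after both ligands and read 292 and 315 at 2 h after Pic. Vapb, an endoplasmic reticulum protein, read 20 to 30.2 after Grd and 87.0 to 140 in all 6 Pic arrays, already at 0.5 h, while its other probe set was at most 42.7 on any array. Cxcl10 read 248.7 and 258 at 2 h after Grd and 1425 and 1591 after Pic, but over the 3 times its difference of -0.44 ± 0.17 did not pass (adjusted p = 0.068).

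**Figure D5:**
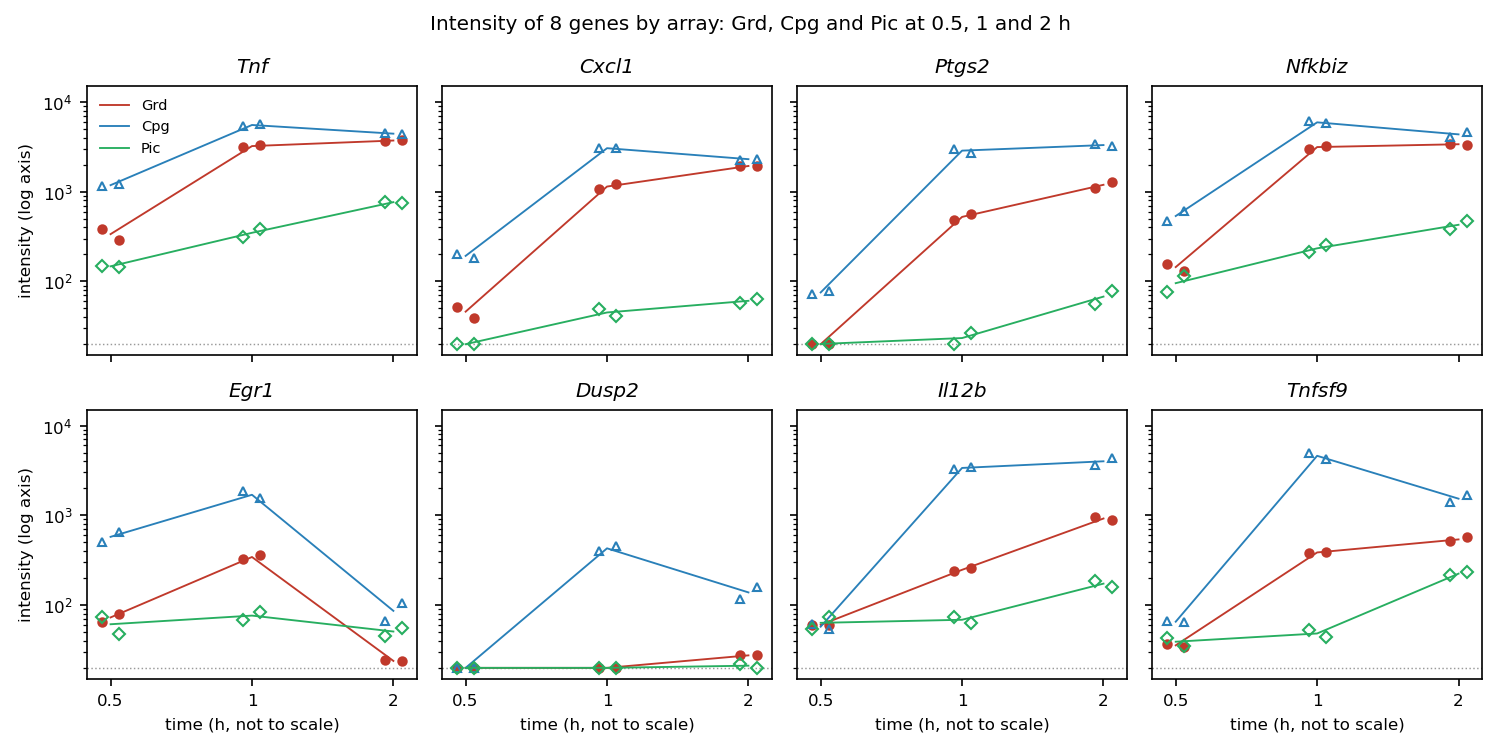
Intensity on a log axis of 8 genes at 0.5, 1 and 2 h after Grd (filled circles), Cpg (open triangles) and Pic (open diamonds), 2 arrays per time, with lines through the means and the floor of 20 dotted. Cpg lies above Grd at 1 h in all 8 genes. For Tnf, Cxcl1 and Nfkbiz the Grd and Cpg values are close at 2 h, while Dusp2 stays near the floor after Grd and Pic.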

How the data were processed

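Total RNA of cultured mouse dendritic cells was hybridised to 1-colour Affymetrix mouse arrays, per the labels' protocols. The deposited intensity values, 18858 probe sets on 96 arrays, were made by the authors with RMA, per the submitters' processing notes, with no version named. The deposited intensities are linear and never below 20, by steps not given in the sources used here. No depth can be given for arrays.

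Probe sets at 20 on all arrays (4409) were left out. Of all probe sets, 15044 had 1 gene symbol, 257 several and 3557 none, and each named gene was shown by whichever of its probe sets had the highest mean, which left 7741 named genes and 2802 unnamed probe sets. Values were taken as log2(intensity + 1), so log2 differences understate the change of low genes and fold changes are on that scale. One limma model (limma 3.58.1, R 4.3.3) held all 96 arrays by ligand and time, with unstimulated arrays as 1 group and 50 residual degrees of freedom. It gave log2 differences with SE and p-values adjusted by Benjamini-Hochberg over all 10543 genes, and a gene passed with an adjusted p under 0.05 and a difference of at least 1. The code was tested on simulated data.

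Genes are named by rank of their difference in each comparison (12 rises and 8 falls over the 3 times, 6 and 4 at single times outside the unstimulated range, 6 each way between times or ligands, 4 each way for Cpg at single times), by rank within gene lists, and from a fixed panel. Further genes named as list members without values were given by their list's count. The arrays and gene lists were chosen with earlier results of these data known. Alternatives varied the pseudocount, centring, filter, probe sets, arrays fitted, weights, unstimulated arrays and each replicate.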

Additional observations from a re-analysis of the deposited data

Results flagged for a closer look

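Within the Grd series, 2 h differed from 0.5 h in 275 genes that were higher and 38 that were lower, by limma's test of that difference. Among 69 named genes not at the floor throughout, 6 had 1 unstimulated array far from the other 7. A chance rate of about 1 in 20 holds only for arrays alike but for random spread. These arrays were of different times and taken on the linear scale, so that rate does not apply. Il6 read 62.4 at 2 h, and Dusp6 109.8 at 0 h. The interferon-stimulated genes Ifit3 and Oas2 read 1396.6 and 395.5 in the same array, that of 6 h. Dusp14 read 24.4 at 6 h and Vapb 29.0 at 0 h, both close to the floor of 20.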

How the results depend on the processing

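The limits rest on the controls and the plate: unstimulated cells changed over time, 2 arrays a time measure little of the spread, and place on the plate cannot be told apart from ligand or time. Counts of genes past both thresholds are given here by alternative, and those not given stayed within 1.5 times the reported count. With the unstimulated arrays of 0, 1 and 2 h alone, 52 genes were higher and 2 lower over the 3 times, 7 higher at 0.5 h, 70 higher and 2 lower at 1 h and 28 lower at 2 h. With a linear trend over the unstimulated arrays these were 65 and 4 over the 3 times, 9 higher at 0.5 h, 5 lower at 1 h and 37 lower at 2 h. With the unstimulated arrays of plate rows G and H and row as a block, 17 were higher at 0.5 h, 70 higher at 1 h and 6 lower at 1 h. With the unstimulated array of the same time, 7 were lower at 1 h and 28 at 2 h, and with 1 and 2 h arrays against unstimulated arrays of 1 and 2 h, 9 were lower, where Tlr8 turned to 0.24. With a pseudocount of 16, 9 were lower over the 3 times, 9 at 1 h and 37 at 2 h, 26 were lower than after Cpg at 0.5 h, and 17 and 9 were higher than after Cpg at 1 and 2 h. With array weights, 8 were lower over the 3 times, 7 at 1 h and 37 at 2 h. Centring arrays left 15 higher than after Cpg at 2 h. With every probe set on its own, 202 were lower at 0.5 h, 504 higher at 2 h than at 0.5 h, 2 higher and 99 lower than after Cpg at 0.5 h, and 4 lower than after Pic. A fit of the compared arrays alone, with fewer residual degrees of freedom, left 6 higher at 0.5 h, 54 higher and 2 lower at 1 h and 36 lower at 2 h, and against Cpg 0 lower at 0.5 h (1147 at an unadjusted p under 0.05), 2 higher and 17 lower at 1 h and 10 higher at 2 h. Apart from these constructions, the cause was not tested.

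With replicate number as a block in a fit of the compared arrays, 0 genes passed in limma in either direction for 2 h against 0.5 h (1646 higher and 2217 lower at an unadjusted p under 0.05), 0 were lower than after Cpg at 0.5 h (1056), and 0 passed in either direction against Cpg at 1 h (1483 and 919) and 2 h (1753 and 1057), with 1 residual degree of freedom among these arrays. The block left the counts over the 3 times at 47 lower than after Cpg and at 18 higher and 2 lower than after Pic. Unstimulated arrays share no numbers with Grd arrays, so no block could be used there, and the numbers are not known to pair the arrays: deviations of equal-numbered Grd arrays correlated at 0.0288 to 0.141 between times, and equal-numbered arrays of a time at -0.095 to 0.0322 between Grd and Cpg and -0.00344 to 0.0659 between Grd and Pic.

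Leaving out 1 array at a time gave 91 to 115 higher and 11 to 31 lower over the 3 times, 34 to 61 and 70 to 95 at 0.5 h, 94 to 131 and 9 to 24 at 1 h, 182 to 211 and 50 to 86 at 2 h, and 271 to 300 and 39 to 53 for 2 h against 0.5 h. Against Cpg the ranges were 0 to 1 higher and 45 to 49 lower over the 3 times, 0 to 2 and 29 to 54 at 0.5 h, 29 to 112 and 113 to 179 at 1 h and 21 to 33 and 89 to 98 at 2 h, and against Pic 16 to 21 and 2 to 3. The lower counts over the 3 times were 11 without the unstimulated array of 24 h, 28 without that of 0 h and 31 without that of 2 h. At 0.5 h 61 were higher without the unstimulated array of 2 h, and at 1 h 24 were lower without it and 9 without that of 12 h. Of 5140 alternative values of single genes, passing or not, 4906 stayed on their side of the thresholds, 208 fell below them and 25 came to pass. A further 1 changed direction where the gene passed in either fit. Changes of direction of genes under the thresholds in both fits were not counted.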
